A study of Mus musculus with 27 samples.

Results

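The 10 genes of the T cell antigen receptor complex and its coreceptors described here were taken by symbol from a list: Cd3d, Cd3e, Cd3g, Cd4, Cd8a, Cd8b1, Trac, Trbc1, Trbc2 and Lck. These are 10 of the 54446 gene identifiers in the deposited tables, and all 10 were measured in all 27 libraries. On an alpha beta T cell, the receptor that binds antigen is a pair of alpha and beta chains, whose constant regions are encoded by Trac and by Trbc1 or Trbc2. The chains have almost no cytoplasmic tail, so the signal passes through the CD3 gamma, delta and epsilon chains and the zeta chain that travel with them. CD4 binds MHC class II and CD8 binds MHC class I beside the receptor, and the kinase Lck, held on the tails of both coreceptors, phosphorylates the CD3 tails. In the non-obese diabetic (NOD) mouse, CD4 and CD8 T cells that enter the pancreatic islets destroy the insulin-producing beta cells.

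Bulk RNA sequencing had been done on cells sorted from mice aged 12 weeks. The TG+ mice were Ins2-CCL21 NOD animals, which carry the T cell chemoattractant CCL21 under an insulin promoter active in beta cells, and the TG- mice were NOD/ShiLtJ. By label, the TG+ and TG- groups held 4 and 4 libraries of lymphocytes infiltrating the islets (CD45), 4 and 4 of FRC-like islet stroma with low gp38 (gp38_low), 2 and 2 of the same stroma with high gp38 (gp38_high), and 3 and 4 of fibroblastic reticular cells (FRCs) from skin-draining lymph nodes (LN_FRC). FRCs build the mesh on which T cells move in a lymph node, and gp38 is podoplanin, the product of Pdpn. Whether the libraries of 1 group were taken from different animals or from a pool is not in the labels, so the spread behind each p-value may be technical.

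The CD45 and gp38 labels did not match the RNA of 14 of the 27 libraries. Ptprc, which encodes CD45, was at 169 to 679 CPM (counts per 1000000 reads in genes) in 8 libraries and at no more than 5.79 CPM in the other 19, while Pdpn was at no more than 1.01 CPM in the 8 and at 51.1 to 218 CPM in the 19. Only 1 of the 8 libraries with high Ptprc was labelled CD45. Of the rest, 5 were labelled LN_FRC, 1 gp38_high and 1 gp38_low. By label, 3 of the 8 were TG+ and 5 were TG-. Whether the genotype labels fit the libraries was not tested, so each comparison of TG+ with TG- is one of labels. The members' levels were therefore described in these 8 libraries, with the other 19 as background. The 8 were split by Cxcl13, the B cell chemoattractant, into 4 above 20 CPM and 4 below 10 CPM. The 4 high-Cxcl13 libraries were those labelled gp38_low TG- 1, LN_FRC TG- 3, LN_FRC TG+ 3 and LN_FRC TG+ 4, where the last digit is the replicate. The 4 low-Cxcl13 libraries were those labelled CD45 TG- 4, gp38_high TG- 2, LN_FRC TG- 4 and LN_FRC TG+ 2. Values below keep this order of libraries. Since the classes were drawn from the data and cross the labelled groups, differences between them are descriptions without a test. Reads in genes numbered 8517844 to 25194443 per library, and a gene without a read may, from counting error alone, stand for 3 counts, which is 0.119 to 0.352 CPM depending on the library.

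All 10 members were higher in every one of the 8 libraries with high Ptprc than in any of the other 19. Among all genes with a mean of at least 1 CPM, 12.4% were higher in this way. The 10 members summed to 1223, 1321, 916 and 1126 CPM in the high-Cxcl13 libraries and to 1568, 1421, 1298 and 1827 CPM in the low-Cxcl13 libraries, against 0.893 to 15.5 CPM in the 19 others. The gap between the lowest of the 8 and the highest of the 19 was widest for Cd4, at 149-fold, and narrowest for Cd3e, at 13.3-fold. In bulk samples like these, fewer T cells and less of a transcript per cell cannot be told apart.

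**Figure D1:**
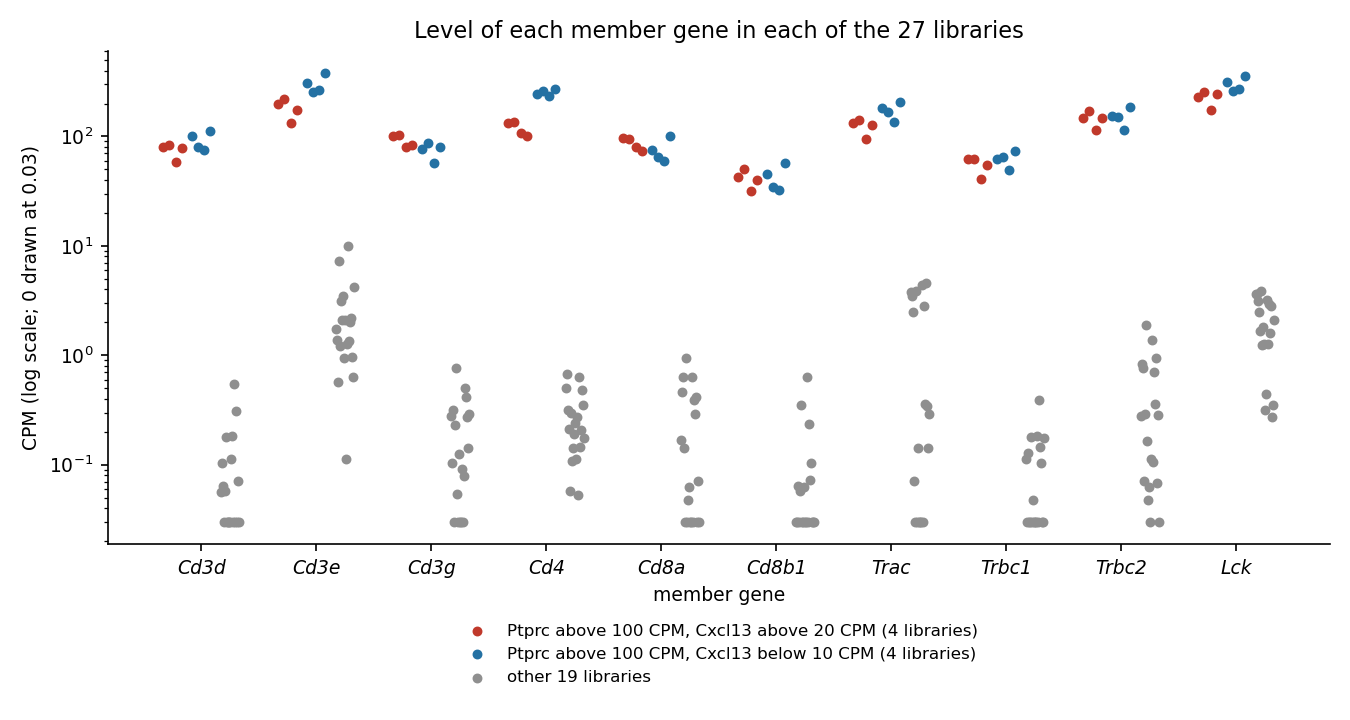
CPM of each member on a log scale in the 4 high-Cxcl13 libraries (red, left), the 4 low-Cxcl13 libraries (blue, middle) and the other 19 libraries (grey, right), 1 point per library, with 0 drawn at 0.03. Every red and blue point lies above every grey point of its gene, and for Cd4 every red point, at 100.1 to 134 CPM, lies below every blue point, at 236 to 271 CPM.

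The CD3 chains are encoded side by side on mouse chromosome 9 (GRCm38, the assembly that mm10 names). Cd3g spans 44969572 to 44980431 on the minus strand, Cd3d spans 44981786 to 44987339 on the plus strand, and Cd3e spans 44998740 to 45009627 on the minus strand. The start regions of these genes and of Cd8a are shown because these members, which were high and low together across the 27 libraries, are switched on as T cells develop. Each window holds 250 bases before and 50 bases after the start in RefSeq (GRCm38.p6), 5′ to 3′ on the gene's own strand. Capitals mark the E-box letters CAGGTG or CAGCTG on either strand (CAGGTG reads CACCTG from the other strand), the kind of sequence bound by the E proteins of lymphocytes. The windows lie at chr9:44981536-44981835 (Cd3d, plus strand), chr9:44980382-44980681 (Cd3g, minus), chr9:45009562-45009861 (Cd3e, minus) and chr6:71373177-71373476 (Cd8a, plus). They give the C57BL/6J reference, not the NOD genome of these mice.
Cd3d: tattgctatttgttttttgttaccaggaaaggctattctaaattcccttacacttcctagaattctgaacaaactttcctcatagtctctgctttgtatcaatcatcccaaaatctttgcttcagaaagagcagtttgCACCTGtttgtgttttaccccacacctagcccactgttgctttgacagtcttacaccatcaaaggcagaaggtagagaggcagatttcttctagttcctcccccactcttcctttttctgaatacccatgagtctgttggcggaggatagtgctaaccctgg
Cd3g: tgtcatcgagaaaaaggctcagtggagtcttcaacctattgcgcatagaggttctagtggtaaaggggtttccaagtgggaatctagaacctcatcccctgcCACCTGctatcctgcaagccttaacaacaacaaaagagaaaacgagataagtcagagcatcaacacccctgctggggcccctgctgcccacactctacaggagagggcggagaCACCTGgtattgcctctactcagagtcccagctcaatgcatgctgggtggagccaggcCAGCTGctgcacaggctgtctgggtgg
Cd3e: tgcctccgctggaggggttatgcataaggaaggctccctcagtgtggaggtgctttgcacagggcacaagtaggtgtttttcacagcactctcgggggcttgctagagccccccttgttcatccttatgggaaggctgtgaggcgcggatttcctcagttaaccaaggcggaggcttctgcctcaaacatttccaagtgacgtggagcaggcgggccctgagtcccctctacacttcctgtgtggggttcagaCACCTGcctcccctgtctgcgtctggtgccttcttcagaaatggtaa
Cd8a: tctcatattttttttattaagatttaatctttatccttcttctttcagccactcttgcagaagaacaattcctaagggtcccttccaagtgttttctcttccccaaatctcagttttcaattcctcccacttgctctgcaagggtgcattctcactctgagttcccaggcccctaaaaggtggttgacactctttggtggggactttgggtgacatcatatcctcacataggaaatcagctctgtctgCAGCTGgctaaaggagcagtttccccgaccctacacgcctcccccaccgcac
The Cd3g window holds 3 such E-boxes and the other windows 1 each. A window was found for 5 of the 10 members, with 2 for Lck, and all 6 windows held an E-box, against 32.9% of 32851 mouse gene windows of the same length. Letters of 3 other factor families were also looked for. ETS letters (AGGAAG, in 35.4% of all windows) were absent from Cd3g and Cd8a. TCF/LEF letters (CTTTGA, 16.0%) were found only in Cd3d, and RUNX letters (TGTGGT, 16.8%) only in Lck. As the E-box is 1 of several motifs looked for, no enrichment is read from its count. Letters found in a window are a description and do not show a bound site.

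Cd3d, the delta chain, was at 81.0, 84.0, 59.1 and 77.9 CPM in the high-Cxcl13 libraries and at 102, 80.0, 75.0 and 113 CPM in the low-Cxcl13 libraries. Cd3g, the gamma chain, was at 102, 104, 80.1 and 84.2 CPM in the high-Cxcl13 libraries and at 76.7, 87.3, 57.8 and 80.9 CPM in the low-Cxcl13 libraries. The ranges of both genes overlapped between the classes, with medians lower for Cd3d and higher for Cd3g in the high-Cxcl13 libraries. Cd3e, the epsilon chain, which pairs with either of the others, was at 196, 221, 132 and 175 CPM in the high-Cxcl13 libraries and at 309, 254, 268 and 379 CPM in the low-Cxcl13 libraries. For Cd3e every high-Cxcl13 library lay below every low-Cxcl13 library, with a ratio of medians of 0.644.

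Per kb of exon, Cd3e to Cd3d stood at 0.994 to 1.17 in the high-Cxcl13 libraries and at 1.35 to 1.59 in the low-Cxcl13 libraries, without overlap. Cd3g to Cd3d stood at 0.698, 0.688, 0.753 and 0.600 in the high-Cxcl13 libraries and at 0.418, 0.605, 0.428 and 0.397 in the low-Cxcl13 libraries. The gp38_high TG- 2 library lay with the high-Cxcl13 libraries in this ratio, and the other 3 low-Cxcl13 libraries lay below them. The span of Cd3e overlaps those of the opposite-strand gene Gm48719 and the same-strand gene Gm48720, and overlap of their exons was not looked at. When strand was ignored, Cd3e kept 0.792 of its reads in the 8 libraries, against at most 1.03 times as many for every other member. Cd3e was also lower in every high-Cxcl13 library in these strand-blind counts, as were 19.9% of all genes.

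The coreceptors lie on chromosome 6, Cd8b1 (71322788 to 71337494) and Cd8a (71373427 to 71379173) next to each other and Cd4 (124864692 to 124888221) far from them. Cd4, the coreceptor of helper and regulatory T cells, was at 131, 134, 108 and 100.1 CPM in the high-Cxcl13 libraries and at 243, 258, 236 and 271 CPM in the low-Cxcl13 libraries. The classes did not overlap, and the ratio of medians was 0.479. Cd8a, whose product forms CD8 alone or with the beta chain, was at 97.1, 95.8, 80.1 and 74.5 CPM in the high-Cxcl13 libraries and at 76.0, 64.6, 59.1 and 101 CPM in the low-Cxcl13 libraries. Cd8b1, which encodes the beta chain of the CD8 of conventional cytotoxic T cells, was at 42.8, 50.8, 31.9 and 40.4 CPM in the high-Cxcl13 libraries and at 45.6, 34.4, 32.2 and 57.0 CPM in the low-Cxcl13 libraries. Both CD8 genes overlapped between the classes, and LN_FRC TG+ 2 had the highest level of each.

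Per kb of exon, the ratio of Cd4 to Cd8a reads was 1.22, 1.26, 1.22 and 1.21 in the high-Cxcl13 libraries and 2.89, 3.60, 3.60 and 2.42 in the low-Cxcl13 libraries. The exact 95% binomial intervals of the high-Cxcl13 ratios ran from 1.09 to 1.36 and those of the low-Cxcl13 ratios from 2.24 to 3.86, covering counting error only, since reads without molecular identifiers are not independent molecules. The classes did not overlap in this ratio. Written as a share of Cd4 plus Cd8a, Cd4 made up 54.8% to 55.8% in the high-Cxcl13 libraries and 70.8% to 78.3% in the low-Cxcl13 libraries. The 4 high-Cxcl13 libraries had nearly the same ratio, whereas the low-Cxcl13 libraries spread more widely. The ratio of Cd8b1 to Cd8a, which would be low where CD8 is made of alpha chains only, was 0.978 to 1.33 in the high-Cxcl13 libraries and 1.31 to 1.47 in the low-Cxcl13 libraries, with overlap. Beside the coreceptors, the ratio of Zbtb7b, a factor that directs T cells to the CD4 lineage, to Runx3, a factor of the CD8 lineage, was 0.948 to 1.22 in the high-Cxcl13 libraries and 0.750 to 1.05 in the low-Cxcl13 libraries. That ratio overlapped between the classes. Zbtb7b was also at 24.6 to 73.6 CPM in the other 19 libraries, where Runx3 was at most 0.709 CPM. The ratio is therefore not one of T cell reads alone. Some dendritic cells of mice also make Cd4. All 7 dendritic cell genes listed were detected in all 8 libraries. In every high-Cxcl13 library 1 was higher and none lower, against 14.1% and 18.8% of all genes. The 7 dendritic cell genes summed to 151 to 288 CPM in the high-Cxcl13 and 157 to 329 CPM in the low-Cxcl13 libraries. Their part in the Cd4 reads was not tested.

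**Figure D2:**
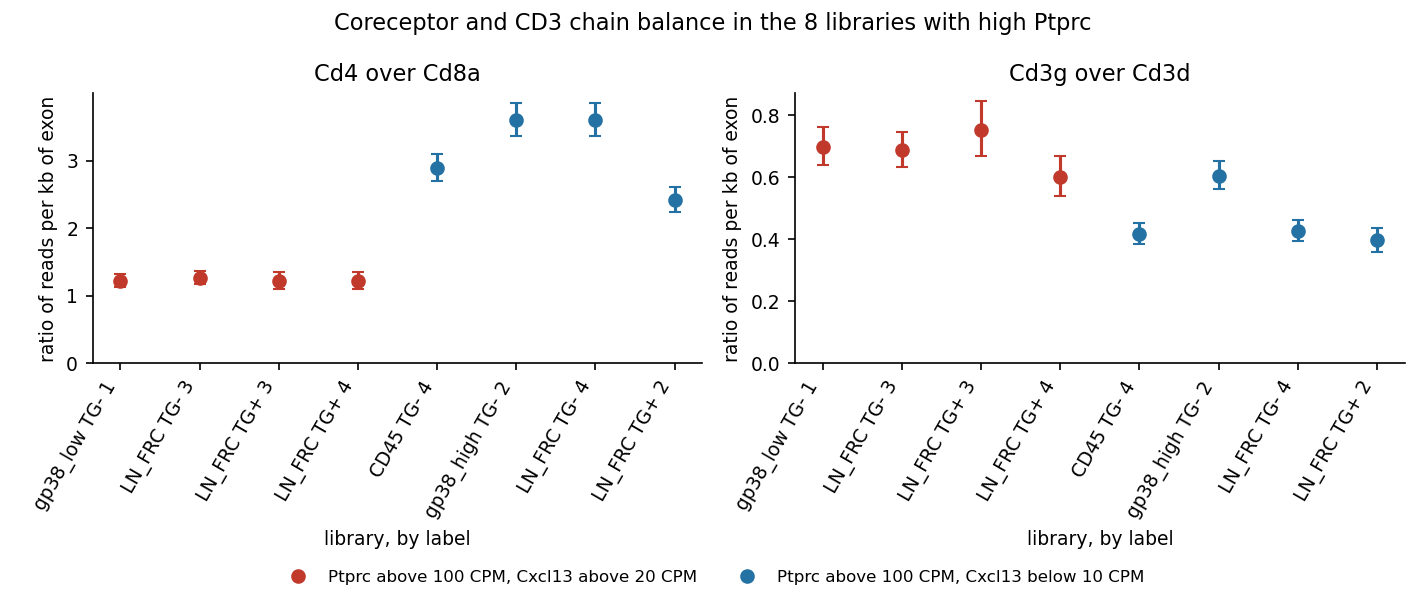
Ratio of reads per kb of exon for Cd4 over Cd8a (left) and Cd3g over Cd3d (right) in the 4 high-Cxcl13 libraries (red) and the 4 low-Cxcl13 libraries (blue), with exact 95% binomial intervals. The red Cd4 ratios lie at 1.21 to 1.26 and the blue ones at 2.42 to 3.60, while in the right panel gp38_high TG- 2, at 0.605, lies just above the lowest red point at 0.600.

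The constant regions of the receptor itself overlapped between the classes. Trac (chromosome 14, 54220521 to 54224206) encodes the alpha constant region and was at 131, 140.1, 94.7 and 127 CPM in the high-Cxcl13 libraries and at 184, 166, 136 and 207 CPM in the low-Cxcl13 libraries. Only LN_FRC TG- 3, the highest of the high-Cxcl13 libraries, and LN_FRC TG- 4, the lowest of the others, kept the classes from separating. Without either of these libraries, Trac was lower in every high-Cxcl13 library. The beta constant genes Trbc1 (chromosome 6, 41538218 to 41539881) and Trbc2 (41546730 to 41548352) are near-identical copies. Their transcripts share the first 259 bases, and the stretch around the first difference, bases 230 to 289 counted from the 5′ end of the GENCODE M21 transcripts, is shown to make this plain, with the differing base in capitals.
Trbc1: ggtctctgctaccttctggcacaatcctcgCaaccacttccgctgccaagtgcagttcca
Trbc2: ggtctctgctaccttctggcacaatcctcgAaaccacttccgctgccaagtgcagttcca
Of all 75-base stretches, 35.1% of those in Trbc1 and 37.7% of those in Trbc2 also occur in the other transcript. Reads that map to both are not counted for either, so the levels of both genes are uncertain and too low by an amount that depends on the read length. No source used here gives that length. Trbc1 was at 62.7, 62.6, 40.9 and 54.3 CPM in the high-Cxcl13 libraries and at 62.6, 65.1, 49.9 and 73.9 CPM in the low-Cxcl13 libraries. Trbc2 was at 148, 171, 115 and 149 CPM in the high-Cxcl13 libraries and at 154, 149.9, 115 and 187 CPM in the low-Cxcl13 libraries. Both overlapped almost wholly between the classes. Per kb of exon, Trbc2 exceeded Trbc1 in all 8 libraries, by 2.56- to 3.04-fold in the high-Cxcl13 and 2.49- to 2.75-fold in the low-Cxcl13 libraries.

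Each receptor chain also carries a variable segment chosen by gene rearrangement, and many segments were read. The 35 Trbv genes summed to 61.6 to 85.5 CPM in the high-Cxcl13 libraries and 72.2 to 107 CPM in the low-Cxcl13 libraries, against at most 0.457 CPM in the other 19. With at least 1 read as detected, 17 to 23 Trbv genes and 43 to 62 of 128 Trav genes were found per library. Reads that map to more than 1 gene are not counted, so the counts and shares of segments alike in sequence are uncertain. Trbv13-2 led in all 8 libraries, with 12.6%, 18.5%, 16.0% and 13.4% of the Trbv reads in the high-Cxcl13 libraries and 19.6%, 17.9%, 17.8% and 18.7% in the low-Cxcl13 libraries. No segment thus took more than 19.6% of the 525 to 1357 Trbv reads of a library.

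Lck (chromosome 4, 129548344 to 129573641), the kinase bound to both coreceptors, was at 230, 256, 174 and 243 CPM in the high-Cxcl13 libraries and at 316, 261, 269 and 357 CPM in the low-Cxcl13 libraries. The classes did not overlap, but LN_FRC TG- 3 and gp38_high TG- 2 were close to each other. Over the 10 members, 3 (Cd3e, Cd4 and Lck) were lower in every high-Cxcl13 library than in every low-Cxcl13 library. Of all 12876 genes with a mean of at least 1 CPM, 18.8% were lower in this way, so 3 of 10 members is near that background. None of the 10 was higher in every high-Cxcl13 library, against 14.1% of all genes. The median log2 ratio of the members, high over low Cxcl13, was -0.16, and that of all these genes was 0.13.

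The count of members that separated the classes depended on what the reads were set against. With TMM-scaled CPM it was Cd3e, Cd4 and Trac, against 24.1% of all genes lower in every high-Cxcl13 library. With the totals computed without the abundant non-coding RNA Gm26917 (5.31% to 36.0% of a library's gene reads), it was Cd3e and Cd4, against 20.1% of all genes. Relative to the CPM of Ptprc it was 8 of 10, all but Cd8a and Cd8b1, but 66.2% of all genes were lower in that scaling. Ptprc was one of the genes that chose the libraries, and nothing is read from that count. Cd3e and Cd4 were lower in the high-Cxcl13 libraries under each of these scalings and with each library left out in turn. Ptprc itself was higher in every high-Cxcl13 library, while the other pan-leukocyte genes on the list, Coro1a and Laptm5, were lower in every one.

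Ordered by median reads per kb of exon over the 8 libraries, the members ran from Trbc2 (216 CPM per kb) and Trac (148) through Lck (88.4), Trbc1 (83.6), Cd3e (58.3), Cd4 (45.9) and Cd3d (44.4) to Cd8b1 (28.0), Cd3g (25.3) and Cd8a (21.5). The ranges of each pair of neighbours in this order overlapped across the 8 libraries. Within every one of the 8, Trbc2 exceeded Trac, Trac exceeded Lck, Trbc1 exceeded Cd3e and Cd3d exceeded Cd8b1. The other neighbours changed order between libraries. Across libraries, Trbc2 varied least, with a highest level 1.63 times the lowest, and Cd3e (2.87 times) and Cd4 (2.70 times) varied most.

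Other genes of the pathway were read from a list of 30 genes of T cell receptor signalling and T cell identity, all of which averaged at least 1 CPM in the 8 libraries. On this list 9 genes were lower and 4 were higher in every high-Cxcl13 library than in every low-Cxcl13 library, and the median log2 ratio was -0.34. Of all genes with a mean of at least 1 CPM, 18.8% were lower and 14.1% higher in this way, so neither count is read as a result about the list. The lower genes with the most unequal medians were Lef1, Tcf7, Ccr7 and Cd40lg. Lef1 and Tcf7 encode transcription factors of naive and memory T cells. Lef1 was at 59.1 to 116 CPM in the high-Cxcl13 and 182 to 264 CPM in the low-Cxcl13 libraries, and Tcf7 at 113 to 206 CPM in the high-Cxcl13 and 267 to 400 CPM in the low-Cxcl13 libraries. Ccr7, the receptor for CCL21, was at 301 to 415 CPM in the high-Cxcl13 and 631 to 829 CPM in the low-Cxcl13 libraries. Cd40lg, the ligand with which helper T cells act on B cells, was at 4.61 to 6.33 CPM in the high-Cxcl13 and 7.95 to 10.3 CPM in the low-Cxcl13 libraries. The 4 higher genes were Ctla4, Themis, Il7r and Trat1. Ctla4, an inhibitory receptor, was at 28.7 to 66.1 CPM in the high-Cxcl13 and 12.9 to 27.8 CPM in the low-Cxcl13 libraries. Themis, a signalling protein of T cell development, was at 26.1 to 29.6 CPM in the high-Cxcl13 and 10.9 to 16.6 CPM in the low-Cxcl13 libraries. Il7r, a chain of the receptor for interleukin 7, was at 37.4 to 44.8 CPM in the high-Cxcl13 and 14.4 to 34.6 CPM in the low-Cxcl13 libraries, and Trat1, an adaptor that binds the receptor complex, at 5.64 to 9.67 CPM in the high-Cxcl13 and 1.14 to 4.14 CPM in the low-Cxcl13 libraries. The abundant gene Thy1, which encodes a surface protein of T cells and stroma, overlapped between the classes. The zeta chain gene Cd247, the partner of the CD3 chains, was at 57.2 to 86.8 CPM in the high-Cxcl13 and 86.1 to 134 CPM in the low-Cxcl13 libraries, with overlap.

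Genes of the gamma delta receptor, the other form of the T cell receptor, which uses the same CD3 chains but usually neither coreceptor, were read at low levels. Of the 5 listed genes that were measured, 4 were higher and 1 was lower in every high-Cxcl13 library. The shares of all genes to set beside this and the other list counts of this paragraph are 14.1% higher and 18.8% lower. Trdc, the delta constant region, was at 11.2 to 20.8 CPM in the high-Cxcl13 libraries and at 5.46 to 7.16 CPM in the low-Cxcl13 libraries. The gamma constant gene Tcrg-C2 was at 2.65 to 8.35 CPM in the high-Cxcl13 and 0.433 to 0.850 CPM in the low-Cxcl13 libraries, and Tcrg-C4 at 4.14 to 6.06 CPM in the high-Cxcl13 and 0.804 to 1.57 CPM in the low-Cxcl13 libraries. Sox13, a factor of gamma delta T cells, was at 0.921 to 2.23 CPM in the high-Cxcl13 and 2.41 to 3.90 CPM in the low-Cxcl13 libraries, and reached 9.69 to 51.8 CPM in the other 19. Of 4 genes of the CD8 lineage, Eomes, Nkg7 and the granzyme gene Gzmk were higher and Runx3 was lower in every high-Cxcl13 library. Of 4 genes of the CD4 lineage, Zbtb7b, Cd40lg and Foxp3, the factor of regulatory T cells, were lower, and Icos overlapped. Zbtb7b was also at 24.6 to 73.6 CPM in the other 19 libraries. Foxp3 was only just separated, at 9.39 to 14.7 CPM in the high-Cxcl13 and 14.7 to 19.3 CPM in the low-Cxcl13 libraries. Natural killer cells share several of these genes, and 4 of 5 genes of that list (Eomes, Klrk1, Ncr1 and Klrb1c) were also higher. Prf1, the most abundant of the 5, overlapped and had a lower median in the high-Cxcl13 libraries. It was at 18.3 to 29.1 CPM in the high-Cxcl13 and 21.9 to 29.1 CPM in the low-Cxcl13 libraries. The natural killer list summed to 49.0 to 96.0 CPM in the high-Cxcl13 and 34.9 to 45.7 CPM in the low-Cxcl13 libraries. The part of natural killer cells in the difference was not tested.

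**Figure D3:**
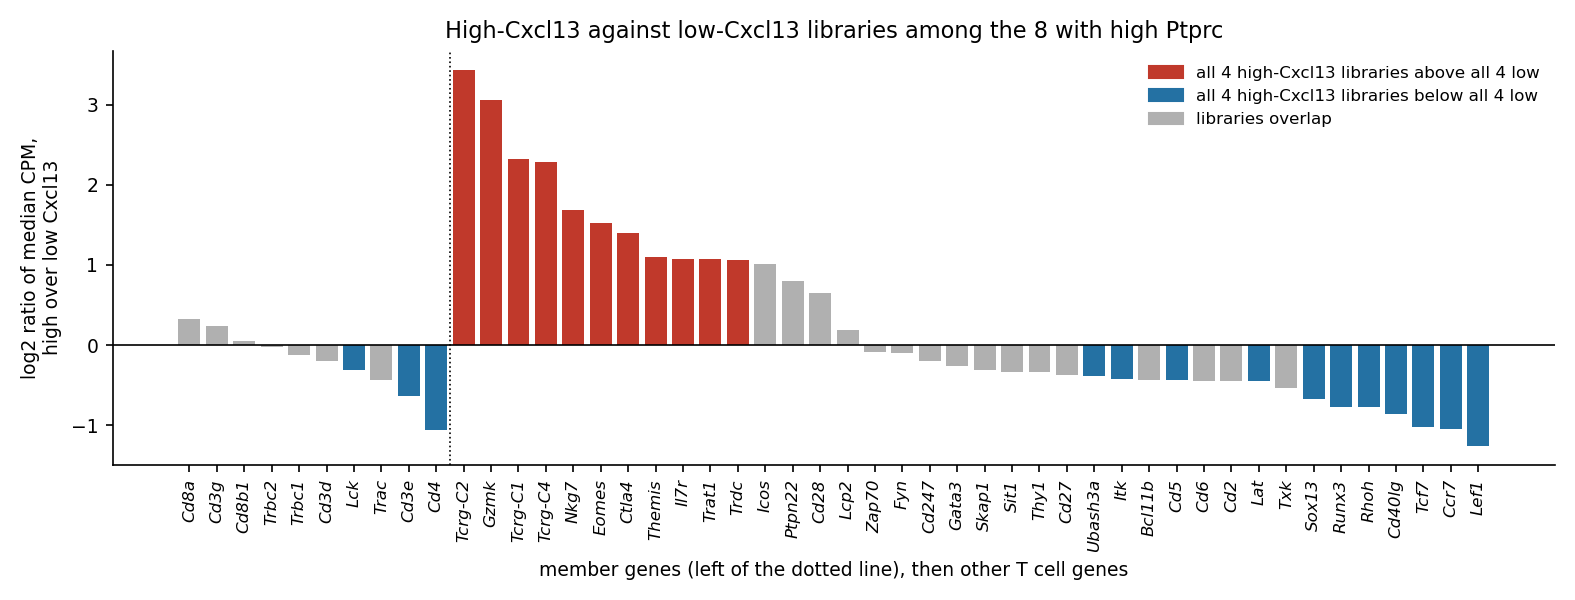
Log2 ratio of median CPM, high-Cxcl13 over low-Cxcl13 libraries, for the 10 members (left of the dotted line) and for other T cell genes averaging at least 1 CPM on the receptor signalling, gamma delta and CD8 lineage lists. Bars in red or blue are genes whose 4 high-Cxcl13 libraries all lie above or below the 4 low-Cxcl13 libraries. Among the members these are Lck, Cd3e and Cd4, all lower, while the gamma delta and cytotoxic genes hold the tallest red bars.

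Markers of other cells also moved with the classes. As background for the counts below, 14.1% of all genes were higher and 18.8% lower in every high-Cxcl13 library. Of 8 B cell genes, all detected in all 8 libraries, 1 was higher and 4 were lower. The lower ones included Cd79a, which encodes a signalling chain of the B cell receptor complex. The higher one was Ms4a1, at 160 to 195 CPM in the high-Cxcl13 and 42.9 to 101 CPM in the low-Cxcl13 libraries. The 8 B cell genes summed to 1186 to 1798 CPM in the high-Cxcl13 and 1827 to 2524 CPM in the low-Cxcl13 libraries. All 6 pancreatic acinar genes were lower, with sums of 261 to 486 CPM in the high-Cxcl13 and 1020 to 3432 CPM in the low-Cxcl13 libraries, including those labelled lymph node. Of 5 plasma cell genes 1 was higher and none lower, with sums of 629 to 1639 CPM in the high-Cxcl13 and 327 to 544 CPM in the low-Cxcl13 libraries. Of 7 macrophage genes none was higher or lower, with sums of 2577 to 9808 CPM in the high-Cxcl13 and 1493 to 4838 CPM in the low-Cxcl13 libraries. Fibroblast genes summed to 61.0 to 115 CPM in the high-Cxcl13 and 25.9 to 42.1 CPM in the low-Cxcl13 libraries, against 12896 to 41250 CPM in the 19 others. The part of these cells in the members' levels was not tested.

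By Pearson's correlation of log2(CPM + 1) with that of the members' summed CPM over the 8 libraries, the most similar of 8121 other genes were Skap1 (r = 0.990), Sla2 (0.983), Il27ra (0.980), Thy1 (0.980) and Pear1 (0.978). Over all 27 libraries they were Ikzf1 (r = 0.998), Dusp2, Ncf4, Cd79a and Rhof (0.990 or more). The 27 points fall into the 8 and the 19, so the second ranking follows any gene of leukocytes, B cell genes such as Cd79a included. All points share their library totals, and the values are descriptions only.

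In the 19 libraries with low Ptprc the members were not at one background level. Cd3d, Cd8b1 and Trbc1 never passed 7 reads, and 9, 11 and 10 of the 19 libraries held none. Cd3e reached 188 reads (9.89 CPM) in gp38_low TG- 4, 104 reads in CD45 TG+ 1 and 73 reads in gp38_high TG- 1. In those 3 libraries Cd3d and Cd3g were at 0 and Trac at 0, 1 and 3 reads. The Cd3e reads there were thus not matched by reads of the chains it pairs with, and the part of the overlapping gene Gm48720 was not tested. Lck ranged from 4 to 71 reads and was at 0 in no library. Trac held 36 to 67 reads in 7 libraries, labelled CD45 TG- 1, 2 and 3, CD45 TG+ 3, gp38_low TG- 3 and gp38_low TG+ 1 and 3, and 0 to 5 reads in the other 12. Trac took 10.3% to 11.7% of the members' reads in the 8 libraries with high Ptprc, and 0% to 37.9% in the other 19. Cd4 held 1 to 13 reads and Cd8a 0 to 16 reads in the 19, too few for a ratio.

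**Figure D4:**
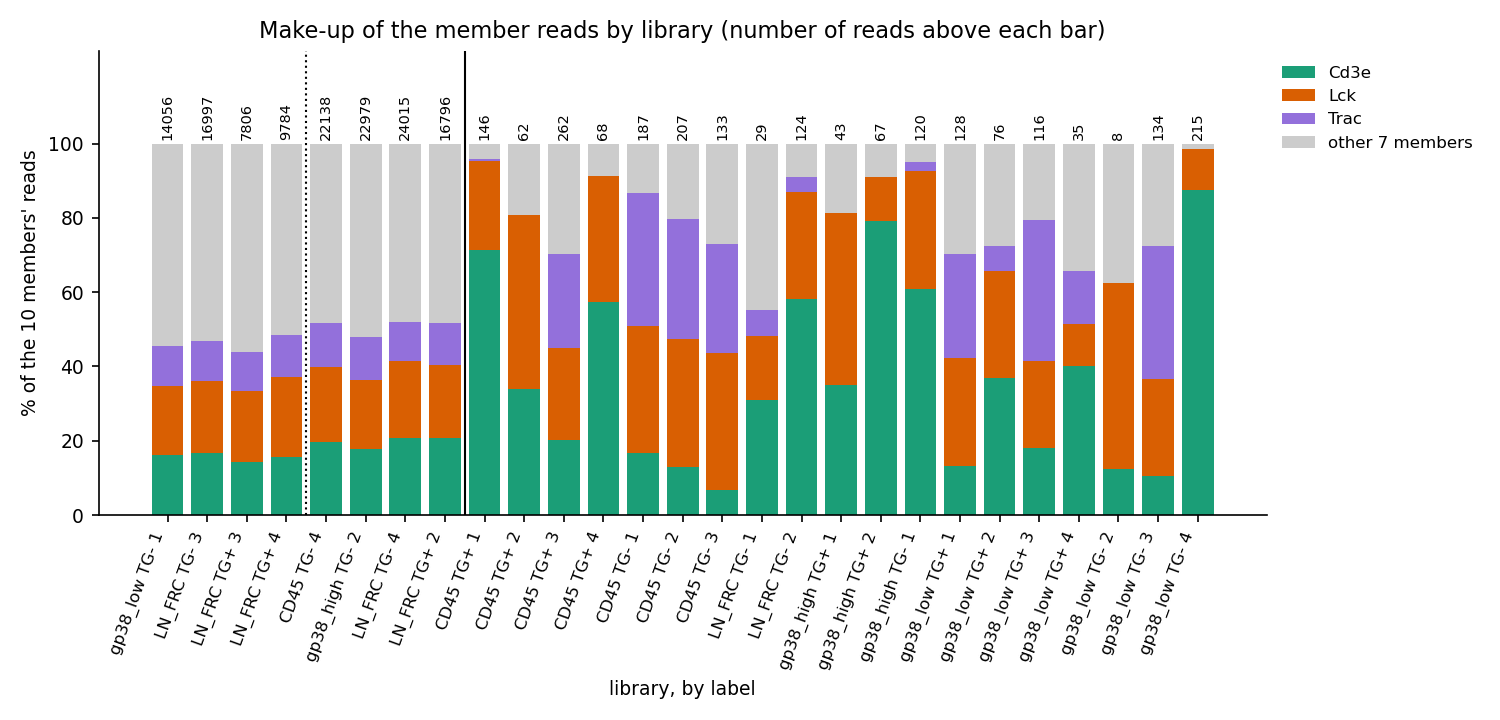
Percent of the 10 members' reads that fell in Cd3e, Lck, Trac and the other 7 members in each library, with the number of reads above the bar. The 8 libraries with high Ptprc stand left of the solid line (high Cxcl13 left of the dotted line) with 14.4% to 20.7% of the reads in Cd3e and 48.2% to 56.2% in the other 7 members, whereas among the 19 to the right Cd3e takes 6.77% to 87.4%.

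The comparison the study was built on, TG+ against TG-, asks how CCL21 made in beta cells changes the cells of the islet and the lymph node. It was made within each labelled population, with the mismatch of labels and RNA in force. None of the members that entered the test (4 in CD45, 3 in gp38_low and 10 each in gp38_high and LN_FRC) passed it. In the CD45 libraries, Cd3e was at 7.32, 1.21, 3.13 and 2.12 CPM in TG+ 1 to 4 and at 1.74, 1.39, 0.574 and 309 CPM in TG- 1 to 4. All 4 TG+ and 3 of the 4 TG- libraries lay at background, and only TG- 4 was high. The fitted log2 difference was -5.03 ± 2.19 (SE; edgeR quasi-likelihood adjusted p = 0.529), and without TG- 4 it was 1.35. The 3 other members that passed the expression filter were Trac, Trbc2 and Lck, and Cd4 and Cd8a did not pass it. Outside TG- 4, Lck held 23 to 71 reads, Trac 0 to 67 and Trbc2 1 to 32. The median log2 difference of the members that passed was -5.82, and without TG- 4 it was -0.42. Of 14871 genes tested, 0.0% were called at an adjusted p under 0.05. Without the TG+ 3 library 520 genes were called, none of them a member.

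In the gp38_low libraries, Cd3e was at 1.34, 2.01, 2.19 and 0.960 CPM in TG+ 1 to 4 and at 196, 0.112, 1.28 and 9.89 CPM in TG- 1 to 4. Only TG- 1 was high, and the groups overlapped. The fitted log2 difference was -5.06 ± 1.92 (edgeR adjusted p = 0.999), and without TG- 1 it was -1.05. Cd3e, Trac and Lck were the members that passed the filter. Of 14095 genes, 0.0% were called. In the gp38_high libraries, Cd3e was at 0.945 and 2.10 CPM in TG+ and at 3.49 and 254 CPM in TG-. Cd4 was at 0.189 and 0.238 CPM in TG+ and at 0.143 and 258 CPM in TG-, and Cd8a at 0.0630 and 0 CPM in TG+ and at 0.0478 and 64.6 CPM in TG-. Only gp38_high TG- 2 was high. The fitted log2 differences were -6.65 ± 3.03 for Cd3e, -9.44 ± 4.34 for Cd4 and -10.11 ± 4.82 for Cd8a, each with an edgeR adjusted p of 0.663, and 0.0% of 17937 genes were called. Without TG- 2 the differences were -0.89 for Cd3e, 0.83 for Cd4 and -0.44 for Cd8a. Cd3d, Trac and Trbc1 had 0 reads in both TG+ libraries, and with 3 counts over the group they were at least 478-, 994- and 389-fold lower in TG+ than in TG-. Without TG- 2, the remaining TG- library held 0, 3 and 1 reads of them.

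In the LN_FRC libraries, Cd3e was at 379, 132 and 175 CPM in TG+ 2 to 4 and at 0.636, 4.20, 221 and 268 CPM in TG- 1 to 4. Cd4 was at 271, 108 and 100.1 CPM in TG+ and at 0.353, 0.175, 134 and 236 CPM in TG-. Cd8a was at 101, 80.1 and 74.5 CPM in TG+ and at 0.0706, 0, 95.8 and 59.1 CPM in TG-. All 3 TG+ and 2 of the 4 TG- libraries were among those with high Ptprc, and the groups overlapped. All 10 members had a positive fitted difference, with a median log2 difference of 1.12 against -0.02 over all genes. For Cd3e it was 0.96 ± 1.67, for Cd4 0.82 ± 1.96 and for Cd8a 1.23 ± 2.0 (edgeR adjusted p = 0.916, 0.925 and 0.916). Of 13819 genes, 0.0% were called. At an unadjusted p under 0.05 edgeR held 1402, 273, 920 and 1057 genes in the CD45, gp38_low, gp38_high and LN_FRC comparisons. DESeq2 called 427, 1, 40 and 549 genes and none of the members. It gave the members an adjusted p only in the LN_FRC comparison.

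**Figure D5:**
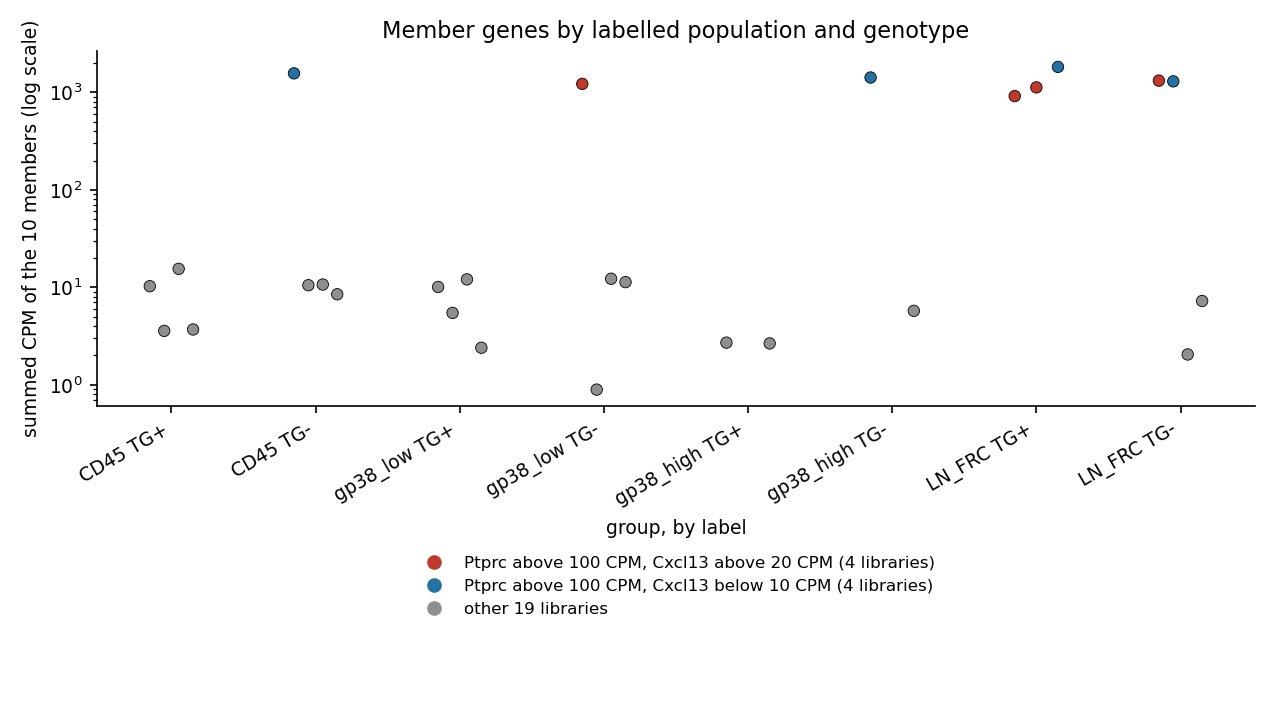
Summed CPM of the 10 members on a log scale by labelled population, TG+ left of TG-, 1 point per library, coloured by class as in the other plots. Points at 916 CPM or more (red and blue) and at 15.5 CPM or less (grey) occur with no library between them, and LN_FRC TG- holds 2 of each.

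The balance of Cd4 to Cd8a was compared between genotypes by label. With this many libraries no p adjusted over the 4 populations could have fallen below 0.05, and in the libraries with low Ptprc neither gene had more than 16 reads, so the values are a description. As log2((Cd4 CPM + 0.5)/(Cd8a CPM + 0.5)) it averaged -0.07 ± 0.53 in TG+ and 0.52 ± 0.89 in TG- CD45 libraries (SD, n = 4 each; exact two-sided permutation p = 0.343). It averaged 0.16 ± 0.63 in TG+ and 0.08 ± 0.44 in TG- gp38_low libraries (n = 4 each; exact permutation p = 0.771). In the gp38_high libraries it was 0.43 ± 0.19 in TG+ and 1.11 ± 1.24 in TG- (n = 2 each; exact permutation p = 1.0, and no split of these could fall below 0.333). In the LN_FRC libraries it was 0.76 ± 0.57 in TG+ and 0.87 ± 0.75 in TG- (n = 3 and 4; exact permutation p = 0.686, and the smallest possible was 0.0571). Adjusted over the 4 populations, every p was 1.0, and with 4 libraries a group the smallest possible p was 0.0286. Where both genes are near 0 reads this measure is set by the pseudocount of 0.5 CPM. Leaving out 1 library turned the sign of the difference in the gp38_low, gp38_high and LN_FRC comparisons. Among the LN_FRC libraries with high Ptprc, the ratio per kb of exon was 2.42, 1.22 and 1.21 in TG+ 2 to 4 and 1.26 and 3.60 in TG- 3 and 4, so each labelled genotype held a low and a high value.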

How the data were processed

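Total RNA of sorted cells was sequenced from KAPA RNA HyperPrep libraries depleted of ribosomal RNA, as stated per the labels' protocols. STAR 2.5.2a, Trim Galore 0.4.3, bcl2fastq 2.17 and mm10 are named in the submitters' processing notes. For every library the authors deposited raw gene counts in 3 forms, unstranded and on either strand. Reads counted for no gene (unmapped, multimapping, ambiguous or outside genes) made up 51.7% to 79.7% of a library and stayed out of all totals. Unmapped reads alone made up 19.4% to 67.7%. The reverse-strand counts were used, since only 6.67% to 15.3% of stranded gene counts were forward. Of 54446 identifiers, 54409 took a symbol, position and exon length from GENCODE M21 (GRCm38), matched without version numbers. RefSeq gave the start windows.

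CPM was computed on reads in genes. TG+ was compared with TG- within each labelled population with edgeR 4.0.16 in R 4.3.3 (TMM, filterByExpr, robust quasi-likelihood F test, Benjamini-Hochberg adjustment over all genes tested, threshold 0.05), and gp38_high was fitted with all islet gp38 libraries. The SE is the log2 difference divided by the root of F. The code of the fit was checked on simulated counts with planted changes, drawn from the same mean profile for every library. Such counts lack the spread within groups seen here, so the check does not speak to error or power in these data. The Cd4 to Cd8a balance was tested by exact permutation (scipy 1.17.1). The 8 libraries with high Ptprc and their split by Cxcl13 were described without tests. Reads shared by Trbc1 and Trbc2 map to both and are not counted.

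All 10 members are named. From the other lists, the text names up to 4 genes by mean CPM and, from the receptor signalling list, up to 4 in each direction by ratio of medians. Other listed genes that are named, and Cd247, were named after their values were seen. Some listed genes are not reported here by name. The members and lists were chosen with earlier results of these data known. Alternatives were DESeq2 1.42.0, RLE factors, no low-count filter, unstranded counts, Gm26917 left out of the totals, all 27 libraries in one fit, a replicate block, other pseudocounts, other scalings and each library left out in turn.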

Additional observations from a re-analysis of the deposited data

Results flagged for a closer look

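In each labelled group of 4 libraries, a library was singled out where its gap to the nearest other, divided by the range of the group, passed Dixon's 95% critical value. Chance alone flags about 1 in 20 groups only where values are independent and normally distributed. That rate does not hold here, since the members of a library rose together and many values were near the floor. A library with reads among libraries without any is always flagged. Of 50 pairs of a group and a member, 25 were flagged, in 3 libraries, and this count is a description without a chance rate. All 10 members were far above the other CD45 TG- libraries in CD45 TG- 4, at 102 CPM for Cd3d, 309 for Cd3e, 76.7 for Cd3g, 243 for Cd4, 76.0 for Cd8a, 45.6 for Cd8b1, 184 for Trac, 62.6 for Trbc1, 154 for Trbc2 and 316 for Lck. This library is labelled CD45 and is the only one of that label with Ptprc above 100 CPM.

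All 10 members were far above the other gp38_low TG- libraries in gp38_low TG- 1, at 81.0 CPM for Cd3d, 196 for Cd3e, 102 for Cd3g, 131 for Cd4, 97.1 for Cd8a, 42.8 for Cd8b1, 131 for Trac, 62.7 for Trbc1, 148 for Trbc2 and 230 for Lck. This library has Ptprc at 679 CPM and Pdpn at 0.348 CPM and goes against its label. In CD45 TG+ 3, which has low Ptprc, 5 members stood apart from the other CD45 TG+ libraries, at 0.945 CPM for Cd8a, 0.355 for Cd8b1, 3.90 for Trac, 0.177 for Trbc1 and 1.89 for Trbc2. The Trbc1 value is at the 0.177 CPM that a count of 0 allows in that library.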

How the results depend on the processing

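Of 365 values recomputed under an alternative, 335 were counted as the same, 19 as moved and 11 as reversed. For single genes and the Cd4 to Cd8a balance, the same meant an unchanged direction and call. For the members' median it meant a shift under the SD between libraries of a group (2.55 in CD45), whatever the sign. For counts it meant equal or within a set fold, and for ratios within the interval of the main value. Only single genes and the balance could count as reversed. A missing adjusted p was counted as no call. No member was called in any population under any alternative run. DESeq2 gave the members an adjusted p only in LN_FRC, so it could call none of them in the other populations. DESeq2 called 427 genes in CD45, 1 in gp38_low, 40 in gp38_high and 549 in LN_FRC, where edgeR called 0. Leaving out 1 library, edgeR called 0 to 520 genes in CD45, the 520 without TG+ 3, and the median log2 difference of the members that passed the filter ran from -7.15 to -0.42 in CD45, -5.45 to 0.0791 in gp38_low and -12.11 to -0.44 in gp38_high. The Cd3e difference in CD45 ran from -5.63 to 1.35 and the Cd4 difference in gp38_high from -10.36 to 0.83. The balance of Cd4 to Cd8a ran from -0.19 to 0.26 in gp38_low, -1.56 to 0.19 in gp38_high and -0.44 to 0.26 in LN_FRC, and with a pseudocount of 2 CPM it was -0.0269 in gp38_low and 0.0639 in LN_FRC. Relative to Ptprc, 0 members separated the 8 libraries with high Ptprc from the other 19, and 8 members separated the Cxcl13 classes, where 10 and 3 had done so in CPM. Both counts are set by the denominator: Ptprc chose the 8 libraries, is near 0 in the 19 and is higher in every high-Cxcl13 library, and 66.2% of all genes separated the Cxcl13 classes downwards in this scaling. Without division by exon length, the Cd4 share was 57.5% in gp38_low TG- 1, 58.4% in LN_FRC TG- 3, 57.5% in LN_FRC TG+ 3, 57.35% in LN_FRC TG+ 4, 76.2% in CD45 TG- 4, 80.0% in gp38_high TG- 2, 80.0% in LN_FRC TG- 4 and 72.8% in LN_FRC TG+ 2. The causes of the other shifts were not tested.

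With the replicate block, the median difference of the members was -1.97 in CD45 and -1.52 in gp38_low, and the Cd3e difference in CD45 was 0.0928. The block called 0 genes in every population. Same-numbered libraries did not deviate together in every pair (correlations of -0.190 to 0.234 in CD45, 0.067 to 0.692 in gp38_low, -0.0124 in gp38_high and -0.163 to -0.0072 in LN_FRC), so the numbers were not taken as pairs. 

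In CD45 and LN_FRC, leaving out all libraries that go against their label leaves no comparison of genotypes. In the 19 libraries with low Ptprc, most members had at most 16 reads, too few for a ratio between members.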
